A study of Homo sapiens with 9 samples.

Results

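The 55 genes described here encode nucleolar ribosome biogenesis factors, the proteins that make, modify, cut and fold ribosomal RNA in the nucleolus. They were taken from a list of gene names, with no value used in the rule, but the list was drawn up with earlier results of these data known, so it is not independent of them. They stand among 11678 gene names listed in at least 1 of 3 deposited tables. Of the 55 genes, 54 were listed in both tables that compare a conditioned medium with control, 9 were listed between the conditioned media, and 8 were listed in all 3 tables. NLE1 was listed only between the media. Each table holds only genes that passed an unadjusted p of 0.05 in its depositors' test, so a gene outside a table has no value here and every share below is a share of listed genes.

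RNA was sequenced from HT29, an established human colorectal adenocarcinoma line, in 9 libraries of 3 groups with 3 labelled biological replicates each. The control cells were grown in complete medium and then kept without serum for 24 h. The methods of the study add that cancer cells were starved of serum overnight before experiments. They also give 3 days of starvation before treatments, to synchronize the cells in their cycle. How this applied to these 9 libraries is not stated. The ESC CM cells received for 24 h conditioned medium (CM) from EPAT-derived stromal cells (ESC), labelled as adipose stromal cells, where EPAT is epiploic adipose tissue, the fat appendages of the colon. The CRC-MPS CM cells received for 24 h the CM of a microphysiological system that held minced EPAT and HT29-GFP cells between sheets of ESC. The sample titles name it CRC-MPS, and it is otherwise labelled as CM from adipose tissue. The paper states that the CM used for sequencing came from CRC-MPS of obese patients, which the sample titles do not give. By the methods of the study, the CRC-MPS was itself kept in DMEM with fetal bovine serum. Its growth medium was diluted in serum-free McCoy's medium to give the CM, so this CM held serum. The stromal cells were also propagated with fetal bovine serum, while control cells had none. Serum, the medium it came in and factors released by the cells therefore cannot be told apart in a comparison with control. The CM of the CRC-MPS also came from wells that held HT29-GFP cells, so factors from EPAT and from those cancer cells cannot be told apart either. Nothing in the sources says whether replicates came from separate cultures or separate tissue donors, and p-values measure only the spread between these libraries, which may be technical.

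Values are TPM, transcript abundances that take length into account and are scaled to the same total in each library, and the read totals behind them are unknown. The listed genes summed to totals that differed by 0.702% and 0.802% among the 6 libraries of each control table and by 2.9% in the table between the media. HT29 is an epithelial line, and 10 of 11 colon epithelial markers were listed in each control table, 5 of them called lower and 1 called higher with either CM. Their summed level ran from 9772 to 10709.8 TPM in control libraries and from 7154 to 7505 TPM with ESC CM in that table, and from 13089 to 14452 TPM in control and from 9362 to 10830.3 TPM with CRC-MPS CM over the 10 markers of the other. Of 6 adipocyte markers only CIDEC was listed, with a sum of at most 4.35 TPM, and ADIPOQ, PLIN1, FABP4, LEP and LPL were not listed. Of 8 stromal markers only COL1A1 was listed, with CRC-MPS CM against control, at most at 2.61 TPM. Of 6 leukocyte markers 3 were listed, and nearly all of their sum of 1680 to 2253 TPM was LYZ, while PTPRC, CD14 and CD3E were not listed. LYZ went from a mean of 2110 to 1681 TPM with CRC-MPS CM, under 1.5-fold, CD68 was called lower (23.9 to 10.9 TPM) and CD163 called higher (0.164 to 1.14 TPM). With ESC CM, CD68 was called lower (24.0 to 9.09 TPM), LYZ went from 2105 to 1777 TPM, and CD163 was not listed. The part of these markers in the results below was not tested.

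A ribosome begins as a long precursor RNA that RNA polymerase I transcribes in the nucleolus. Small nucleolar ribonucleoproteins (snoRNPs) of the box C/D class guide methylation of that RNA and those of the box H/ACA class guide its pseudouridylation, while large assemblies, helicases and GTPases fold and cut it into the small and the large subunit. Cells raise these factors when they grow, many of the genes are known targets of MYC, and colorectal tumours are known for enlarged nucleoli.

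The letters around the start sites of the genes are shown first, as a description, with motifs picked after the data were seen. A RefSeq promoter window (GRCh38.p14), from 250 bases before to 50 bases after the annotated start, was found for 48 of the 55 genes; NOP58, BOP1, DDX18, NOLC1, RRP1B, RRS1 and RRP12 are named only. The E-box CACGTG, which reads the same on both strands and is the letter sequence that MYC with MAX is known to bind, stood in the window of 23 of those 48 genes, or 47.9%. It stood in a window of 12.2% of the 7364 genes with a window that were listed for ESC CM against control. Of all 27305 genes with a window, 8.77% had it, and a gene with several windows was counted once. In 19 genes it began between 20 bases before and 40 bases after the start. The windows below, at most 30 bases, 5′ to 3′ on the strand of the gene and with the E-box in capitals, come from genes that changed much (LYAR, UTP20, NOC3L), from genes that changed little (NOP10, PES1, DDX21) and from FBL and GNL3, which were listed between the media. Counted from the RefSeq start, the E-box began at base -64 in LYAR, -10 in UTP20, 20 in NOC3L, 7 in GNL3, 7 in FBL, -31 in DDX21, -11 in NOP10 and 14 in PES1, so that it lay before the start in some and within the first transcribed bases in others. The GENCODE gene models of all of these genes but UTP20 begin further upstream than the RefSeq start. Of the windows below only that of UTP20 has its E-box outside the GENCODE gene. 
LYAR, chr4:4290068-4290097, minus strand: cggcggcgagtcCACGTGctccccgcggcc
UTP20, chr12:101280083-101280112, plus strand: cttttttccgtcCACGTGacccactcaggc
NOC3L, chr10:94362903-94362932, minus strand: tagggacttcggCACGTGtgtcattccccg
GNL3, chr3:52686026-52686055, plus strand: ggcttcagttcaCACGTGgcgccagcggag
FBL, chr19:39846356-39846385, minus strand: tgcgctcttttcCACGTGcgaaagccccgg
DDX21, chr10:68956604-68956633, plus strand: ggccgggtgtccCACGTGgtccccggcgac
NOP10, chr15:34343130-34343159, minus strand: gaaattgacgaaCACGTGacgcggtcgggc
PES1, chr22:30591880-30591909, minus strand: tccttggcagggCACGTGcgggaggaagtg

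A longer stretch, the 150 bases just before the RefSeq start of UTP20 (chr12:101279955-101280104, plus strand), shows the E-box close to the start and a run of C-rich letters before it. 
UTP20, upstream: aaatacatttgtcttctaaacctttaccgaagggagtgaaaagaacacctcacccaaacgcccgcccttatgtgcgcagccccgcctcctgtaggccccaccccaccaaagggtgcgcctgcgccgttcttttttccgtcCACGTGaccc
The other motifs were searched on both strands. CCGGAAG, a core letter sequence of ETS factors, stood in a window of 45.8% of the 48 genes against 21.8% of listed genes. GGGCGG, the GC box, stood in 72.9% against 75.8%, CCAAT in 43.8% against 43%, and TATAAA in 2.08% against 8.72%. A match is a description of letters and not a bound site. The median change of genes with an E-box was not larger than that of genes without. The median difference from control on the log2 scale was 0.56 in 22 listed genes with it and 0.71 in 25 without it for CRC-MPS CM, and 0.57 and 0.67 for ESC CM.

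Ribosome biogenesis factors were higher with both CM than in serum-free control, with RRP12 as the exception. With CRC-MPS CM, 34 of the 54 listed genes were called higher and 0 were called lower, where called means a Benjamini-Hochberg adjusted p under 0.05 in limma, a moderated linear model across all listed genes, and a difference over 1.5-fold on the log2(TPM + 1) scale. Of all 10019 genes of that table, 20.4% were called higher and 20.2% lower. With ESC CM, 33 of 54 were called higher and 0 lower, against 17.6% higher and 20.2% lower among 10007 genes. Without a minimum fold, 53 of the 54 genes were higher at an adjusted p under 0.05 in each comparison, against 42.8% of all genes for CRC-MPS CM and 42.8% for ESC CM, and 0 were lower, against 40.2% and 41.7%. The 3 libraries with CM all lay above the 3 control libraries for 53 genes in each comparison, against 45.3% of all genes for CRC-MPS CM and 45.7% for ESC CM. At 2-fold, the counts were 12 genes for CRC-MPS CM and 6 for ESC CM, against 5.82% and 4.87% of all genes. Both comparisons use the same 3 control libraries, so they are not independent of each other.

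The changes were moderate in size. The median of the 54 differences was 0.71 on the log2 scale for CRC-MPS CM and 0.67 for ESC CM, while the medians of all listed genes were -0.01 and -0.05. As ratios of mean TPM, the genes stood at a median of 1.66 times control with CRC-MPS CM (0.856 to 2.62) and 1.61 times with ESC CM (0.858 to 2.38). TPM is a relative measure, and dividing each library by the median ratio of its genes lowered the differences of genes at or above 1 TPM by 0.13 for CRC-MPS CM and by 0.11 for ESC CM. On that scale 26 of 54 genes were called higher in each comparison and 0 lower, and the medians of the 54 were 0.57 and 0.55. The same step moved the calls over all genes from 2044 higher and 2024 lower to 1431 and 2626 for CRC-MPS CM, and from 1762 and 2018 to 1263 and 2506 for ESC CM.

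**Figure D1:**
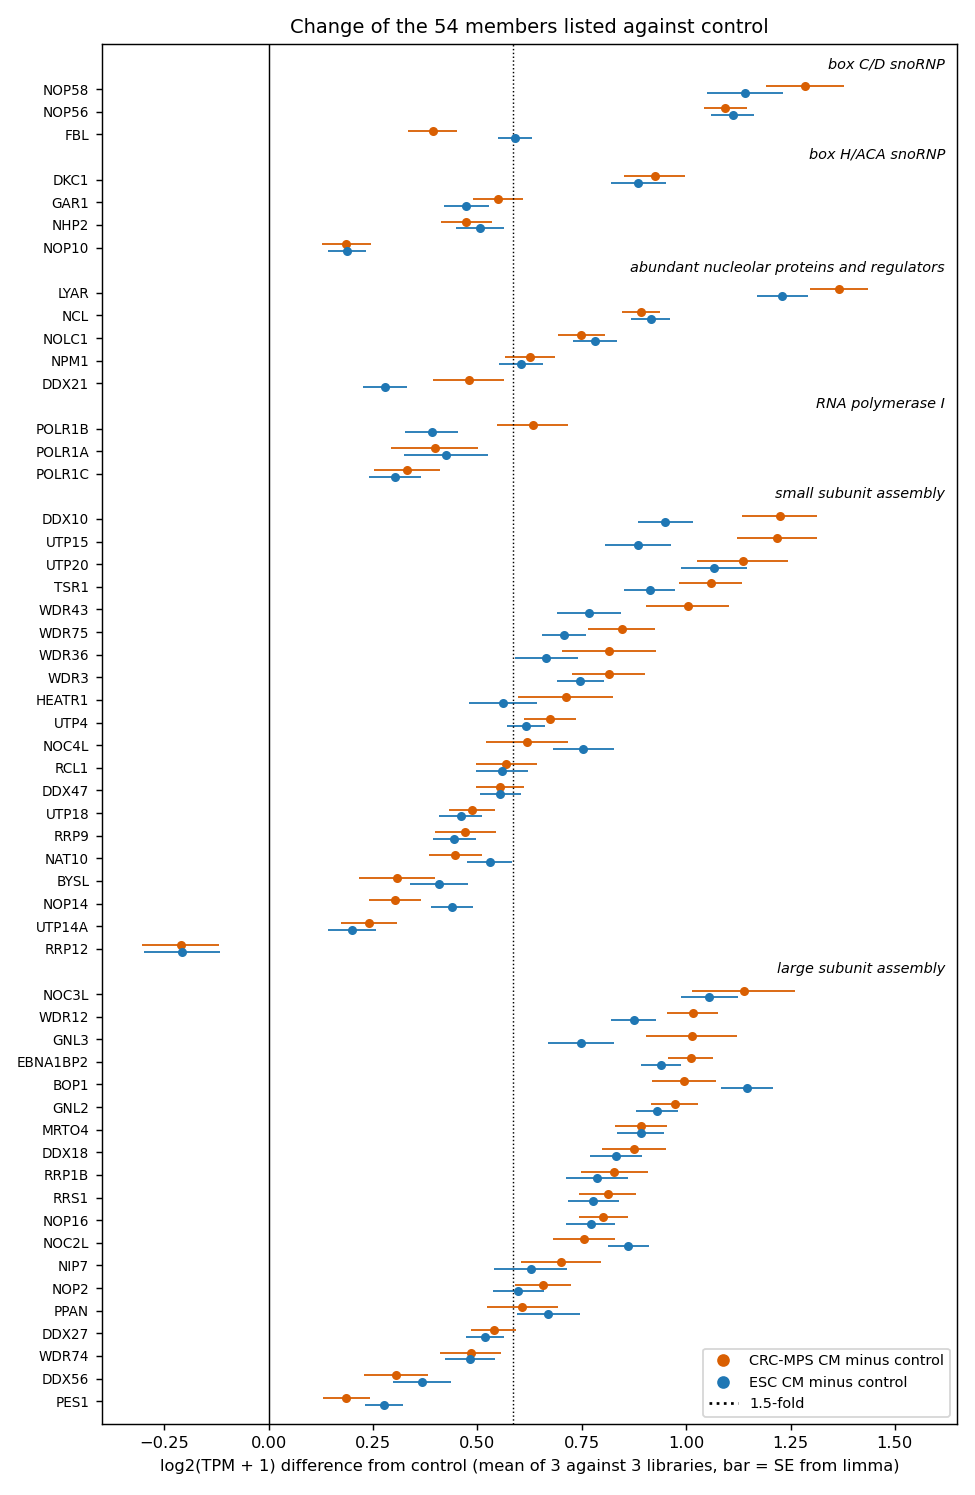
Difference from control of the 54 listed genes on the log2(TPM + 1) scale, grouped by role, with CRC-MPS CM in orange and ESC CM in blue; points are differences of means of 3 libraries and bars are SE from limma. Every gene but RRP12 lies to the right of 0, and the dotted line marks 1.5-fold.

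**Figure D2:**
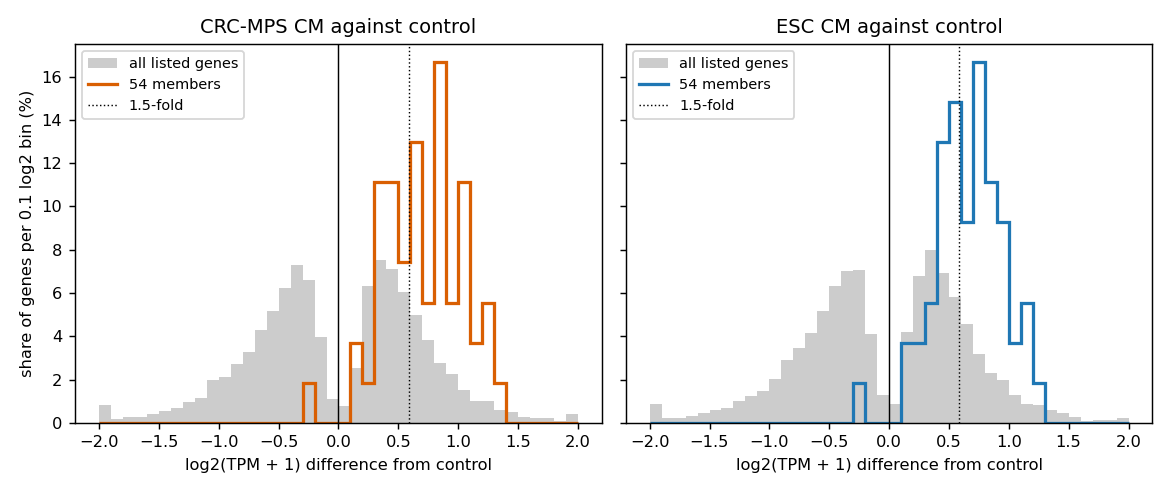
Share of genes (%) per bin of 0.1 on the log2(TPM + 1) scale for the 54 ribosome biogenesis genes (coloured outline) and for all listed genes (grey), with differences beyond 2 put into the outermost bins. All listed genes form a lower and a higher hump around 0, only genes with a small p having been listed, and the 54 genes sit in the higher hump apart from RRP12.

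In the accounts of single genes that follow, differences are on the log2(TPM + 1) scale, and where a pair of values is given without names the order is ESC CM, then CRC-MPS CM. The box C/D snoRNP carries 3 of the genes, NOP58 and NOP56, which form its scaffold, and FBL (fibrillarin), the methyltransferase. NOP58 (chr2:202265716-202303666, plus strand) was at 64.6, 67.7 and 83.1 TPM in the control libraries, 149, 164 and 162 TPM with ESC CM and 167, 175 and 185 TPM with CRC-MPS CM. The control libraries lay far below all 6 others, and the difference was 1.29 ± 0.09 (SE) for CRC-MPS CM (adjusted p 1.34e-05) and 1.14 ± 0.09 (SE) for ESC CM (adjusted p 2.35e-05). NOP56 (chr20:2652145-2658393, plus strand) was at 197, 209 and 208 TPM in control, 418, 448 and 469 TPM with ESC CM and 430.4, 429 and 452 TPM with CRC-MPS CM. Its groups with CM overlapped each other and stood at about the same distance from control, with differences of 1.11 ± 0.05 (SE) (adjusted p 3.01e-06) and 1.09 ± 0.05 (SE) (adjusted p 2.92e-06). FBL (chr19:39834458-39846414, minus strand) was at 527, 515 and 503 TPM in control, 759, 772 and 803 TPM with ESC CM and 723, 671 and 638 TPM with CRC-MPS CM. Its differences were smaller in value than those of its partners, 0.59 ± 0.04 (SE) with ESC CM, just over the 1.5-fold limit, and 0.39 ± 0.06 (SE) with CRC-MPS CM, under it. The call with ESC CM was lost without control replicate 3 (0.57) or ESC CM replicate 3 (0.57) and under median-ratio scaling.

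Among the 4 proteins of the box H/ACA snoRNP, the catalytic subunit changed most. DKC1 (dyskerin, the pseudouridine synthase; chrX:154762742-154777689, plus strand) was at 148, 175 and 168 TPM in control, 293, 300.0 and 312 TPM with ESC CM and 295, 324 and 313 TPM with CRC-MPS CM. The CM groups overlapped each other and neither came near control, with differences of 0.88 ± 0.07 (SE) (adjusted p 1.67e-05) and 0.92 ± 0.07 (SE) (adjusted p 1.77e-05). NOP10, the smallest core protein of the complex, changed least, at 387, 379 and 356 TPM in control, 427, 414 and 439 TPM with ESC CM and 445, 428 and 403 TPM with CRC-MPS CM. Its groups did not overlap, but the gap to the highest control library was small, and the difference was 0.19 ± 0.05 (SE) and 0.19 ± 0.06 (SE) (adjusted p 0.0103 and 0.0294). NHP2, which binds the guide RNA, went from a mean of 205 TPM in control to 293 TPM with ESC CM and 285 TPM with CRC-MPS CM. GAR1, which helps the product leave the enzyme, went from 46.6 to 64.9 and 68.7 TPM. Both passed the test without reaching 1.5-fold. DKC1 was thus the one called of 4 in either comparison. That is near the share of all listed genes called higher, 20.4% for CRC-MPS CM and 17.6% for ESC CM.

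The abundant nucleolar proteins and regulators held the gene with the largest change of all. LYAR, a zinc finger protein of the nucleolus tied to cell growth (chr4:4267701-4290169, minus strand), was at 30.3, 34.2 and 32.95 TPM in control, 77.1, 76.2 and 78.4 TPM with ESC CM and 83.4, 88.5 and 83.7 TPM with CRC-MPS CM. Every library with CM stood far above the highest control library, and the difference was 1.37 ± 0.07 (SE) with CRC-MPS CM (adjusted p 3.38e-06) and 1.23 ± 0.06 (SE) with ESC CM (adjusted p 3.55e-06). NCL (nucleolin; chr2:231453531-231483641, minus strand), which binds precursor rRNA, was at 628, 635 and 629 TPM in control, 1166, 1150.1 and 1274 TPM with ESC CM and 1159.9, 1192 and 1161 TPM with CRC-MPS CM. Its control libraries were the tightest of this role, and the difference was 0.92 ± 0.05 (SE) and 0.89 ± 0.05 (SE) (adjusted p 4.31e-06 and 3.72e-06). NOLC1 (Nopp140), a chaperone that holds snoRNPs in the nucleolus, was at 118, 126 and 126 TPM in control, 213, 202 and 221 TPM with ESC CM and 204, 217 and 203 TPM with CRC-MPS CM. It rose by 0.78 ± 0.05 (SE) and 0.75 ± 0.06 (SE), with no overlap with control (adjusted p 1.06e-05 and 1.53e-05).

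NPM1 (nucleophosmin), a histone and ribosome chaperone and the most abundant of the 55, went from a mean of 1460.2 TPM in control to 2235 TPM with ESC CM and 2254 TPM with CRC-MPS CM. Its difference of 0.60 ± 0.05 (SE) and 0.63 ± 0.06 (SE) lay just over 1.5-fold and fell under it with median-ratio scaling (0.49 and 0.49) and with each library centred within bins of transcript GC content (0.31 and 0.25). The annotation holds 45 pseudogenes named after NPM1, among which its reads could be split. DDX21, a helicase that acts in rRNA transcription and processing, was the least changed of this role, at 143, 158 and 156 TPM in control, 188, 182 and 182 TPM with ESC CM and 187, 225 and 229 TPM with CRC-MPS CM. Its libraries with CM all lay above control, with differences of 0.28 ± 0.05 (SE) and 0.48 ± 0.08 (SE) (adjusted p 0.00233 and 0.00154), but after that centring the difference was -0.05 for ESC CM and 0.03 for CRC-MPS CM, so its direction was not stable to that step.

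RNA polymerase I had the smallest median difference of the 6 roles. Of its subunits in the list, POLR1B, the second largest (chr2:112541915-112577150, plus strand), was at 26.9, 29.2 and 28.6 TPM in control, 36.4, 39.7 and 37.2 TPM with ESC CM and 41.02, 49.3 and 43.2 TPM with CRC-MPS CM. It was called with CRC-MPS CM (0.63 ± 0.09 (SE), adjusted p 0.000324) and not with ESC CM (0.39 ± 0.06 (SE), adjusted p 0.00107), and the call with CRC-MPS CM was lost without CRC-MPS CM replicate 2 (0.56), with a pseudocount of 5 (0.57), under median-ratio scaling (0.50) and with centring by GC content (0.36, and 0.20 for ESC CM). POLR1C, which RNA polymerase III shares, was at 53.95, 49.7 and 48.8 TPM in control, 62.7, 59.6 and 65.8 TPM with ESC CM and 70.6, 62.4 and 59.9 TPM with CRC-MPS CM. It changed least of the 3, by 0.30 ± 0.06 (SE) and 0.33 ± 0.08 (SE) (adjusted p 0.0037 and 0.00789), and control stayed below both CM. POLR1A, the largest subunit, went from a mean of 20.8 TPM to 28.1 TPM with ESC CM and 27.7 TPM with CRC-MPS CM. All 3 subunits passed the test without a minimum fold in both comparisons, with medians of 0.39 (ESC CM) and 0.40 (CRC-MPS CM). Of all listed genes, 42.8% passed as higher by that rule in each comparison.

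The small subunit is built in a large particle, the small subunit processome, and 20 of the genes serve it. With CRC-MPS CM 11 of the 20 were called higher, against 20.4% of all listed genes, with a median difference of 0.65, and with ESC CM 10 were, against 17.6%, with a median of 0.59. UTP20, a very large scaffold of the particle (chr12:101280109-101386616, plus strand), was the lowest expressed of the 54, at 7.83, 7.52 and 7.64 TPM in control, 17.001, 16.3 and 17.9 TPM with ESC CM and 15.7, 20.005 and 18.7 TPM with CRC-MPS CM. Its control libraries lay within a narrow band and all others well above it, with differences of 1.07 ± 0.08 (SE) and 1.14 ± 0.11 (SE) (adjusted p 1.64e-05 and 4.92e-05). DDX10, a helicase (chr11:108665025-108940930, plus strand), was at 21.8, 22.2 and 23.3 TPM in control, 45.7, 45.2 and 41.7 TPM with ESC CM and 47.7, 55.2 and 58.98 TPM with CRC-MPS CM. The 3 groups did not overlap and ascended from control to ESC CM to CRC-MPS CM, with differences of 0.95 ± 0.07 (SE) and 1.22 ± 0.09 (SE) from control (adjusted p 1.15e-05 and 1.32e-05). UTP15, of the subcomplex that first binds the precursor (chr5:73565443-73583377, plus strand), was at 12.3, 11.8 and 11.1 TPM in control, 22.9, 23.5 and 20.97 TPM with ESC CM and 25.7, 30.3 and 30.1 TPM with CRC-MPS CM. It showed the same order of groups, with differences of 0.88 ± 0.08 (SE) and 1.22 ± 0.10 (SE) from control (adjusted p 4.29e-05 and 1.79e-05).

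Other members of the subcomplex of UTP15 also rose. WDR43 went from a mean of 54.9 TPM in control to 94.8 TPM with ESC CM and 111 TPM with CRC-MPS CM, WDR75 from 31.6 to 51.9 and 57.6 TPM, and UTP4 from 71.2 to 109 and 114 TPM. HEATR1, the largest protein of that subcomplex, went from 20.1 to 29.98 TPM with ESC CM, not called, and to 33.8 TPM with CRC-MPS CM, called. In the next subcomplex to join, WDR3 went from 35.1 to 59.5 and 62.7 TPM and WDR36 from 17.8 to 28.7 and 32.3 TPM, all called, while UTP18 stayed under 1.5-fold, from 57.7 to 79.5 and 81.2 TPM. The later acting TSR1, a GTPase-like protein, was at 17.8, 18.4 and 18.7 TPM in control, 35.3, 34.9 and 35.3 TPM with ESC CM and 36.9, 40.2 and 40.5 TPM with CRC-MPS CM. It was one of the larger changes, with differences of 0.91 ± 0.06 (SE) and 1.06 ± 0.08 (SE) (adjusted p 1.08e-05 and 1.22e-05).

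The remaining factors of the small subunit were mostly under 1.5-fold. NOC4L, a partner of NOP14, was called with both CM, from a mean of 22.996 TPM to 39.3 TPM with ESC CM and 35.9 TPM with CRC-MPS CM. NOP14 was at 66.6, 68.8 and 63.7 TPM in control, 90.5, 87.6 and 91.6 TPM with ESC CM and 86.2, 80.8 and 79.2 TPM with CRC-MPS CM. It stood apart from control in both, yet at differences of 0.44 ± 0.05 (SE) and 0.30 ± 0.06 (SE) that were under 1.5-fold. DDX47, a helicase, NAT10, which acetylates rRNA, RRP9, a protein of the U3 snoRNP, RCL1, whose yeast counterpart is needed for an early cut, BYSL and UTP14A were likewise higher with both CM and under 1.5-fold on the log2 scale, with ratios of mean TPM between 1.19 (UTP14A) and 1.51 (RCL1) for CRC-MPS CM and between 1.15 (UTP14A) and 1.5 (RCL1) for ESC CM. RCL1 exceeded 1.5 as a ratio of means with CRC-MPS CM but not after 1 TPM was added. UTP14A, a factor that helps release U3, was the least changed of the small subunit genes that rose, at 41.7, 45.1 and 45.2 TPM in control, 49.4, 51.001 and 50.8 TPM with ESC CM and 50.1, 52.8 and 53.4 TPM with CRC-MPS CM. Its difference was 0.20 ± 0.06 (SE) and 0.24 ± 0.07 (SE) (adjusted p 0.0198 and 0.0161), and its groups did not overlap control.

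RRP12, a HEAT-repeat protein that acts in maturation and export of subunits (chr10:97356358-97426076, minus strand), did not rise. It was at 34.7, 44.4 and 38.8 TPM in control, 33.3, 33.1 and 34.6 TPM with ESC CM and 34.3, 33.5 and 33.1 TPM with CRC-MPS CM. The lowest control library stood just above all CRC-MPS CM libraries, as in 44.1% of all listed genes, and inside the range of the ESC CM libraries. The difference was -0.21 ± 0.09 (SE) and -0.21 ± 0.09 (SE) and did not pass the test (adjusted p 0.108 and 0.109). Without control replicate 1 it passed, with adjusted p of 0.0172 for ESC CM and 0.0296 for CRC-MPS CM and no minimum fold, and under median-ratio scaling as well (0.0225 and 0.0193). After centring by GC content its difference was 0.07 for CRC-MPS CM and -0.04 for ESC CM. Its exons share bases with AL355490.2 on the other strand, and no source used here says whether reads were counted by strand.

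**Figure D3:**
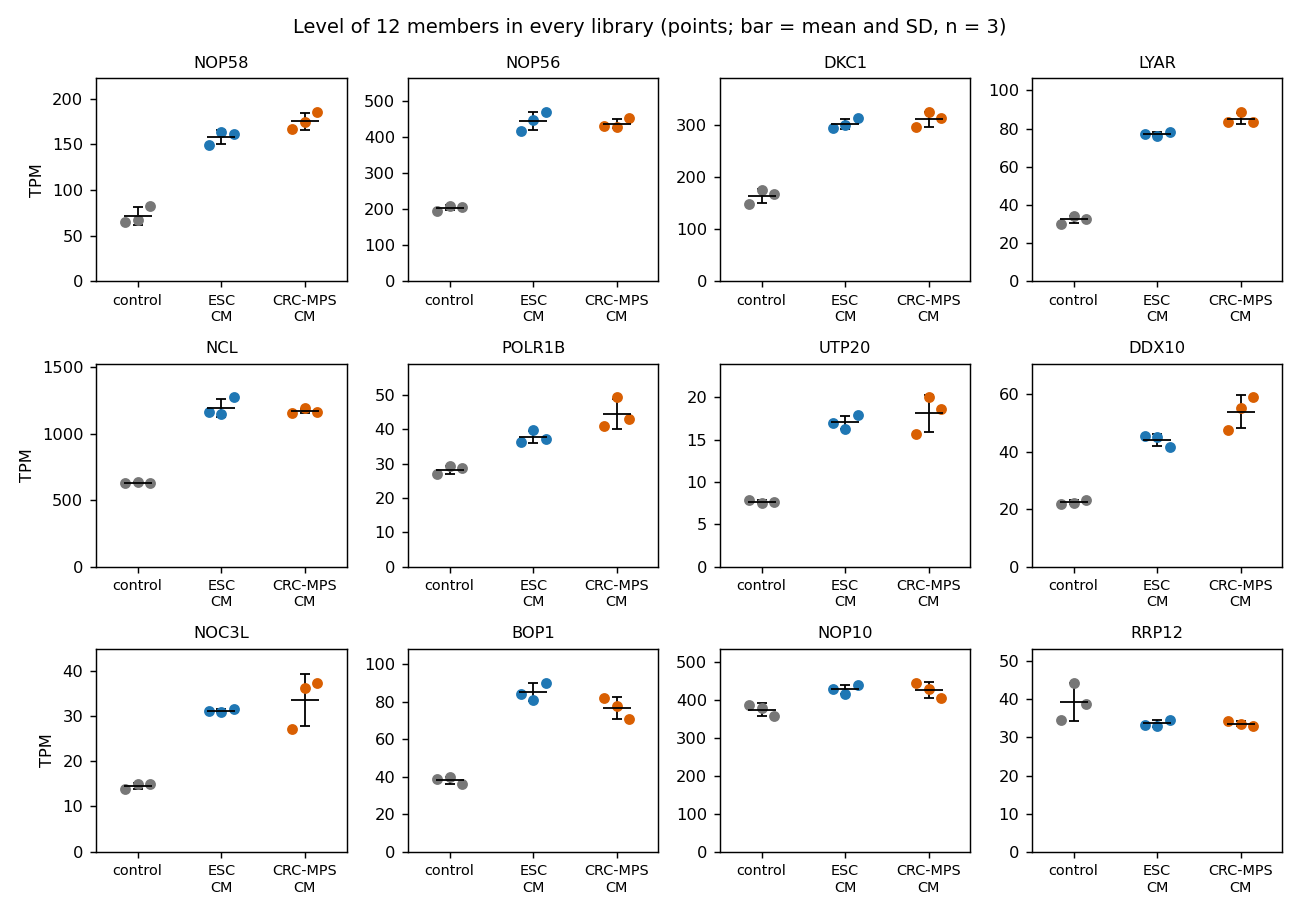
TPM of 12 of the genes in every library, with control in grey, ESC CM in blue and CRC-MPS CM in orange; points are libraries and bars are the mean and SD of 3, control and CRC-MPS CM from the table that compares them and ESC CM from its own table with control. In 11 of the panels both CM lie above control, and in RRP12 control is highest.

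Factors of the large subunit rose without exception among those listed. Of the 19 listed against control, 15 were called with CRC-MPS CM, with a median difference of 0.81, and 15 with ESC CM, with a median of 0.78, and all 19 passed the test without a minimum fold in both. Of all listed genes, 20.4% and 17.6% were called higher for CRC-MPS CM and ESC CM, and 42.8% passed as higher without a minimum fold in each. BOP1, of the PeBoW complex that processes the large subunit precursor, was at 38.6, 39.7 and 35.9 TPM in control, 84.3, 80.7 and 90.2 TPM with ESC CM and 82.2, 77.7 and 70.7 TPM with CRC-MPS CM. Both CM lay far above control, with differences of 1.15 ± 0.06 (SE) and 0.99 ± 0.08 (SE) (adjusted p 5.27e-06 and 1.65e-05). WDR12, of the same complex (chr2:202874782-203014798, minus strand), was at 69.3, 76.02 and 68.1 TPM in control, 129.6, 131 and 135 TPM with ESC CM and 141, 146 and 147 TPM with CRC-MPS CM. Its differences were 0.87 ± 0.05 (SE) and 1.02 ± 0.06 (SE) (adjusted p 7.66e-06 and 6.49e-06), with groups apart. PES1, the third protein of PeBoW, was the least changed large subunit gene, at 67.3, 66.7 and 65.997 TPM in control, 82.6, 78.8 and 80.8 TPM with ESC CM and 78.8, 74.8 and 74.4 TPM with CRC-MPS CM. Its difference was 0.28 ± 0.05 (SE) and 0.19 ± 0.06 (SE) (adjusted p 0.00125 and 0.0256), so the 3 partners of 1 complex spanned nearly the whole range of the role.

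NOC3L, which acts in large subunit precursors (chr10:94333226-94362959, minus strand), was at 13.8, 14.9 and 14.9 TPM in control, 31.1, 30.9 and 31.6 TPM with ESC CM and 27.05, 36.2 and 37.4 TPM with CRC-MPS CM. It had the widest spread of all 54 genes in the CRC-MPS CM group, whose replicate 1 lay below the ESC CM libraries, and its differences were 1.06 ± 0.07 (SE) and 1.14 ± 0.12 (SE) (adjusted p 9.11e-06 and 9.7e-05). NOC2L, its partner, went from a mean of 89.97 TPM to 164 TPM with ESC CM and 153 TPM with CRC-MPS CM. EBNA1BP2, whose yeast counterpart works with that of RRS1, went from 95.7 to 184 and 194 TPM, and RRP1B and RRS1, the latter needed to bring in the 5S RNA, from 13.7 to 24.2 and 25.04 TPM and from 35.6 to 61.5 and 63.2 TPM. All 5 of these genes were called in both comparisons.

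The GTPases of the large subunit were also called with both CM. GNL2 went from a mean of 50.6 TPM to 97.2 TPM with ESC CM and 100.3 TPM with CRC-MPS CM. GNL3 (nucleostemin), known from stem and tumour cells, was at 69.9, 66.3 and 82.4 TPM in control, 121, 127 and 121 TPM with ESC CM and 127, 156 and 162 TPM with CRC-MPS CM. Its CRC-MPS CM replicate 1 lay at the level of ESC CM and the other replicates above it, and its differences were 0.75 ± 0.08 (SE) and 1.01 ± 0.11 (SE) (adjusted p 9.75e-05 and 9.57e-05). Of the helicases, DDX18 was called (65.03 to 116 and 120.1 TPM), while DDX27 (86.6 to 124 and 126 TPM) and DDX56 (102 to 132 and 126 TPM) were higher but under 1.5-fold. NOP2, an rRNA methyltransferase, NOP16, MRTO4, which resembles a protein of the ribosomal stalk, NIP7 and PPAN were called with both CM, at ratios of 1.54 (PPAN) to 1.87 (MRTO4) for CRC-MPS CM and of 1.52 (NOP2) to 1.87 (MRTO4) for ESC CM. WDR74 went from 95.1 to 133 and 133 TPM, under 1.5-fold. Calls close to the limit turned on single libraries. With CRC-MPS CM, PPAN was not called without control replicate 1 (0.53) or CRC-MPS CM replicate 1 (0.57), and NOC4L was not called without control replicate 3 (0.56) or CRC-MPS CM replicate 1 (0.54). With ESC CM, NOP2 was not called without control replicate 1 (0.55) or ESC CM replicate 3 (0.58), NIP7 without control replicate 1 (0.57) or control replicate 3 (0.58), and NPM1 without control replicate 2 (0.56). PPAN shares exons with the read-through gene PPAN-P2RY11 on the same strand, so its level is uncertain.

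Levels in control ran from 7.66 TPM (UTP20) to 1460.2 TPM (NPM1), with a median of 51.8 TPM. The spread between replicates was small. The median coefficient of variation over the 54 genes was 4.56% in control and 4.94% with CRC-MPS CM in their table, and 2.94% with ESC CM in its own. The widest was 16.9% (NOC3L, CRC-MPS CM), and NOP58 was widest in control (13.8%). Transcript GC content ran from 37.3% to 65.2%. The difference from control fell with GC content, with a Spearman rho of -0.491 over the 54 genes for CRC-MPS CM and of -0.253 for ESC CM, and over all listed genes with a GC value of -0.41 (8431 genes) and -0.285 (8560 genes). These are correlations across genes of the same libraries, and genes are not independent replicates. With each library centred within bins of GC content, 31 of the 54 were called higher for CRC-MPS CM and 28 for ESC CM, and the medians were 0.66 and 0.61. Over all listed genes with a GC value, 1644 were then called higher and 1984 lower for CRC-MPS CM. For ESC CM these counts were 1589 and 2068. Among the 54, the genes called were not all the same as before. For CRC-MPS CM the call ended for 10 genes, NPM1, POLR1B, WDR43 (1.00 to 0.56), WDR75 (0.84 to 0.40), HEATR1 (0.71 to 0.33), WDR3 (0.81 to 0.37), WDR36 (0.81 to 0.27), WDR12 (1.02 to 0.57), DDX18 (0.88 to 0.43) and NIP7 (0.70 to 0.42), and began for 7, FBL (0.39 to 0.67), NHP2, RRP9, RCL1, BYSL, DDX27 and WDR74. For ESC CM it ended for 10, NPM1, UTP15 (0.88 to 0.56), WDR43 (0.77 to 0.44), WDR75 (0.71 to 0.38), WDR3 (0.75 to 0.42), WDR36 (0.67 to 0.26), WDR12 (0.87 to 0.55), DDX18 (0.83 to 0.51), NIP7 (0.63 to 0.44) and GNL3 (0.75 to 0.46), and began for 5, NHP2, RRP9, RCL1, DDX27 and WDR74. What the relation with GC content comes from was not tested.

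Between the conditioned media few of the genes were listed. Only 9 of 55 were listed in the table of CRC-MPS CM against ESC CM, 0 were called in limma with or without a minimum fold, against 1.41% of all 2835 genes called with the minimum fold, and 6 of the 9 had an unadjusted limma p under 0.05, against 63.2% of that table. The CRC-MPS CM libraries all lay above ESC CM for 3 genes, against 36.8% of all listed genes, and all below for 3, against 26.8%. A gene reached this table only if it already passed a test on the same libraries, so these shares are no measure of how many of the 55 differ.

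UTP15 differed most upward. In this table it was at 22.8, 23.5 and 20.9 TPM with ESC CM and 25.7, 30.1 and 30.1 TPM with CRC-MPS CM, a difference of 0.34 ± 0.09 (SE) with no overlap (adjusted p 0.228). DDX10, at 45.4, 45.2 and 41.6 TPM with ESC CM and 47.7, 54.8 and 58.98 TPM with CRC-MPS CM, differed by 0.28 ± 0.09 (SE) without overlap (adjusted p 0.313). TSR1, at 35.1, 34.8 and 35.2 TPM with ESC CM and 36.8, 39.9 and 40.5 TPM with CRC-MPS CM, differed by 0.15 ± 0.07 (SE) without overlap (adjusted p 0.606). In all 3 of these small subunit genes, CRC-MPS CM replicate 1 was the nearest to ESC CM. GNL3, at 121, 127 and 121 TPM with ESC CM and 127, 157 and 162 TPM with CRC-MPS CM, differed by 0.27 ± 0.09 (SE) (adjusted p 0.342). DDX21, at 187, 181 and 181 TPM with ESC CM and 186, 223 and 229 TPM with CRC-MPS CM, differed by 0.21 ± 0.08 (SE) (adjusted p 0.411). In both, replicate 1 of CRC-MPS CM lay within the range of ESC CM, so the groups overlapped.

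The other 4 genes were lower with CRC-MPS CM. NLE1, whose yeast counterpart is released from large subunit precursors by a motor protein, was at 64.97, 61.2 and 67.5 TPM with ESC CM and 54.4, 55.03 and 54.9 TPM with CRC-MPS CM. All 3 CRC-MPS CM libraries sat close together below ESC CM, at a difference of -0.23 ± 0.06 (SE) (adjusted p 0.236). FBL, at 759.6, 773 and 804 TPM with ESC CM and 724, 673 and 639 TPM with CRC-MPS CM, differed by -0.20 ± 0.06 (SE) without overlap (adjusted p 0.26). NOP14, at 89.9, 87.5 and 91.3 TPM with ESC CM and 86.1, 80.1 and 79.2 TPM with CRC-MPS CM, differed by -0.13 ± 0.06 (SE) without overlap (adjusted p 0.621). BOP1 overlapped, at 83.8, 80.6 and 90.02 TPM with ESC CM and 82.2, 77.1 and 70.7 TPM with CRC-MPS CM, at a difference of -0.15 ± 0.08 (SE) (adjusted p 0.777) that was 0.03 after centring by GC content.

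These results rest on CRC-MPS CM replicate 1. Without it, 5 of the 9 genes passed an adjusted p of 0.05 in limma with no minimum fold. GNL3 and DDX21 (both adjusted p 0.0182), UTP15 (0.0314) and DDX10 (0.0331) were then higher with CRC-MPS CM and FBL (0.0266) lower, at differences of 0.38, 0.30, 0.41, 0.36 and -0.25 in that order, and still 0 passed 1.5-fold. Leaving out that library also moved the calls with the 1.5-fold minimum over all genes from 40 to 153. How many of all listed genes passed without a minimum fold in that setting is not given here. The 5 of 9 genes therefore cannot be set against a share of all genes. Leaving out any other library left 0 of the 9.

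**Figure D4:**
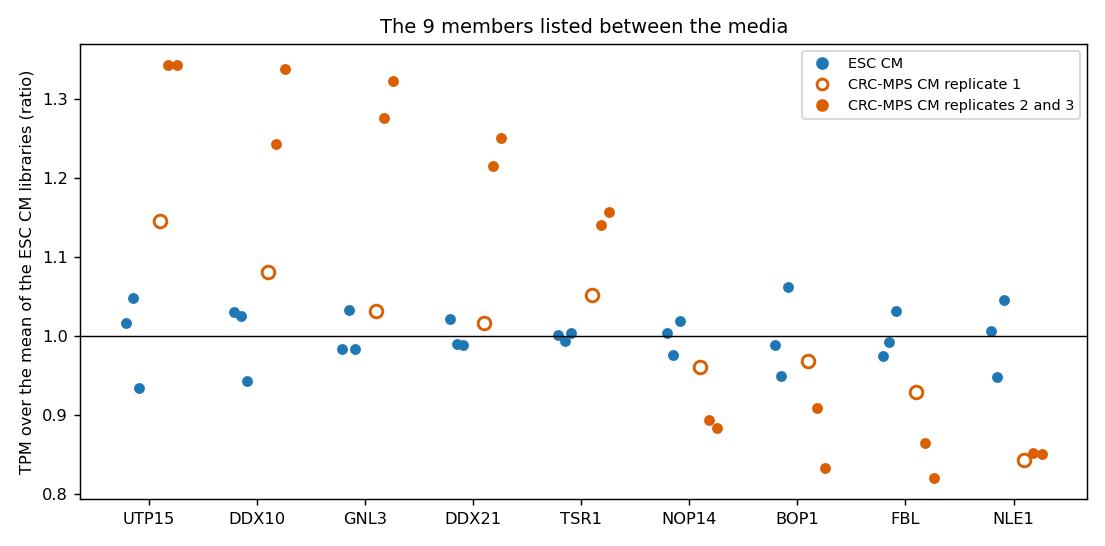
TPM of the 9 genes listed between the media, divided by the mean of the ESC CM libraries, with ESC CM in blue, CRC-MPS CM replicate 1 as open orange circles and replicates 2 and 3 as filled orange circles. In 8 of the genes replicate 1 lies nearer to ESC CM than the other CRC-MPS CM replicates, and in NLE1 all 3 lie together.

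For the 54 genes with values in all 9 libraries, the levels with each CM can be set side by side across the control tables, which were normalized separately, so no test was made. The CRC-MPS CM mean lay above the ESC CM mean in 37 genes and below it in 17, the median ratio was 1.03 (0.871 to 1.28), and 40 genes were within 10% of each other. The libraries of the CM groups overlapped in 41 genes, while those of CRC-MPS CM lay all above in 9 and all below in 4. Over the 8673 genes with values in both control tables, 12.8% lay all above and 10% all below, so the counts of the 54 are near those shares. The highest ratios were those of UTP15 (1.28), DDX10 (1.22), GNL3 (1.21, with overlapping libraries) and POLR1B (1.18). CRC-MPS CM replicate 1 was the lowest of its group in 31 genes and the highest in 15, and it was the nearest to the ESC CM mean in 34. The counts of means and of replicate 1 over all genes are not given here. They therefore cannot be read as a trait of the 54 genes.

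The ratio between the media followed GC content. Among the 31 genes with a transcript GC content under 50%, 28 had the higher mean with CRC-MPS CM, with a median ratio of 1.05, and among the 23 genes at or over 50%, 9 did, with a median ratio of 0.983. Spearman's rho between ratio and GC content was -0.779 over the 54 genes and -0.506 over 2648 genes of the table between the media. In single libraries of that table, the level relative to the mean of the 6 rose with GC content in the ESC CM libraries (rho 0.463 to 0.503) and in CRC-MPS CM replicate 1 (0.267), and fell with it in CRC-MPS CM replicates 2 and 3 (both -0.582). With centring by GC content, the median difference of the 9 listed genes went from 0.15 to 0.03 and 0 were called. Over all genes listed there with a GC value, 53 were called. The part of GC content in the differences between the media was not tested.

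**Figure D5:**
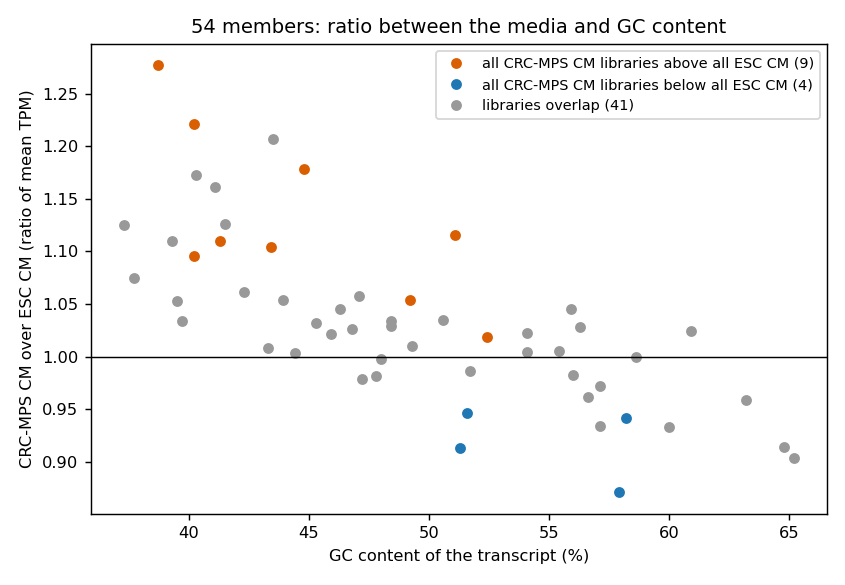
Ratio of mean TPM with CRC-MPS CM to mean TPM with ESC CM against the GC content (%) of the transcript for 54 genes, coloured by whether the 3 libraries of a group lie all above (9), all below (4) or overlap (41). Ratios above 1 gather at low GC content and ratios below 1 at high GC content.

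Many related genes outside the list were also higher. Of 123 genes in 7 pathway lists, 109 were listed for CRC-MPS CM against control, 61 of them called higher and 1 lower, with a median difference of 0.63, and 111 for ESC CM, 50 called higher and 3 lower, with a median of 0.55. Over all listed genes, 20.4% were called higher and 20.2% lower for CRC-MPS CM and 17.6% and 20.2% for ESC CM, and the lists below are to be read against these shares. Other small subunit factors were called higher in 17 of 23 (CRC-MPS CM) and 14 of 28 (ESC CM), and DCAF13, whose yeast counterpart is a processome protein, showed ratios of mean TPM (here and below CRC-MPS CM first, ESC CM second) of 2.76 and 2.58. Other large subunit factors were called in 19 of 30 and 16 of 29, led by BRIX1 (2.69 and 2.29) and CEBPZ (2.52 and 2.32). Other RNA polymerase I and rDNA transcription factors were called in 7 of 12 and 6 of 10, among them CD3EAP, a polymerase subunit (2.34 and 2.45), and TCOF1, the Treacle protein (2.12 and 2.35). Against that direction, POLR1D, shared by RNA polymerases I and III, was lower by a small amount, at -0.19 and -0.17.

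Genes that trim rRNA or build snoRNPs went the same way. Of the 14 genes of the nuclear exosome, 8 were called higher for CRC-MPS CM and 7 for ESC CM, and all 14 passed without a minimum fold in both, with EXOSC2 at ratios of 2.3 and 2.25. All 9 snoRNP assembly factors passed without a minimum fold, and 4 and 5 were called, with SHQ1, a chaperone of DKC1, at 2.32 and 2.02. Of all listed genes, 42.8% were higher without a minimum fold in each comparison. Late and cytoplasmic maturation factors were mixed. LTV1 was at ratios of 2.17 and 1.93, while NOB1, the nuclease of the last cut in small subunit RNA, differed by -0.44 and -0.48 and RIOK3, a kinase, by -0.50 and -0.84. The long noncoding host genes of snoRNAs, of which 1 of 10 was called higher in each comparison, below the share of all listed genes, and 1 and 2 lower, were mixed too, with SNHG3 higher (ratios of 2.1 and 1.88) and SNHG7 lower (0.643 and 0.563), and their medians differed in sign between the CM (0.18 and -0.13). Between the media 30 of the 123 genes were listed and 0 were called, against 1.41% of all genes listed there.

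A shared feature that the list did not use is the snoRNA. Annotated snoRNA genes lay inside 9 of the 55 genes (16.4%), against 1.78% of 9014 protein-coding genes listed for ESC CM against control. These hosts were NOP58, NOP56, DKC1, NCL, POLR1C, WDR43, TSR1, GNL3 and PPAN. snoRNA levels were not analysed here, and TPM of a host gene says nothing of them. Exons of 27 of the 55 genes share bases with another annotated gene, which could add reads to or take reads from those genes.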

How the data were processed

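The deposit holds 3 tables, one for each pair of groups and each with 6 libraries, whose columns were matched to labelled samples by name. The authors' deposited value per library is, as far as its sums show, TPM per gene; the submitters' processing notes name STAR 2.6.1d, kallisto 0.46.0, DESeq2 and genome build hg38, and no source used here names the annotation or any use of strand. The columns the authors deposited from their own tests (average level, fold change with its error, statistic, p-value and adjusted p-value) were not used, apart from a check that 0 rows had a p-value at or over 0.05. A library present in 2 tables differed between them by a median of 0.045% to 0.556%. Without counts no count test could be run, and depth is unknown.

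For each comparison, log2(TPM + 1) of all listed genes was fitted in limma 3.58.1 (R 4.3.3; eBayes with a mean trend) on its 6 libraries. Benjamini-Hochberg adjustment was made over an assumed 20000 genes, because the tables hold only genes selected on p; such p-values remain too favourable. Calls need an adjusted p under 0.05 and over 1.5-fold (0.585 on the log2 scale), which understates changes of low genes. An exact permutation test of 3 against 3 libraries cannot go below p = 0.1 (two-sided) and was not used. The fit was tested on simulated data with known changes, whose outcome is not given here. The simulated noise was independent between genes and libraries and held no relation with GC content.

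The genes, their roles and the 7 pathway and 4 marker lists were chosen with earlier results of these data known. Values in every library were given by rule: for each role the 3 called genes with the largest change in either control comparison and the least changed gene, every gene called lower, and the genes listed between the media. RRP12, POLR1D, NOB1 and the motifs were picked after the data were seen, and the other pathway genes are among the 3 per list with the largest change among those called. Gene models are from GENCODE release 29 (hg38) and promoter windows from RefSeq (GRCh38.p14). Alternatives were pseudocounts of 0.1 and 5, a filter at a mean of 1 TPM, adjustment over the listed genes or over 30000 genes, 2-fold, no minimum fold, median-ratio scaling, each library left out and the replicate number as a block. Centring within bins of transcript GC content, and alternatives combined with no minimum fold, were added after the data were seen. Names that read as dates (14, 13 and 4 rows) stayed in the counts of all genes. Python 3.11.15, pandas 2.3.3, numpy 2.4.6 and matplotlib 3.10.9 were used.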

Additional observations from a re-analysis of the deposited data

How the results depend on the processing

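The genes called against control were 31 to 35 of 54 for CRC-MPS CM and 28 to 34 for ESC CM under every alternative except median-ratio scaling (26 and 26), no minimum fold (53 and 53) and 2-fold (12 and 6), and 0 were called lower under any of them. With no minimum fold, leaving out 1 library gave 48 to 51 and 52 to 53 genes. Median-ratio scaling with no minimum fold gave 46 and 52 genes, of which 45 and 51 were higher. RRP12 was the 1 lower gene without control replicate 1 and under median-ratio scaling. Leaving out 1 library gave 32 to 34 called genes for CRC-MPS CM, 31 to 34 for ESC CM and 0 between the media, or 0 to 5 there with no minimum fold, the 5 without CRC-MPS CM replicate 1. Over all listed genes the calls were 4068, 3780 and 40 (with CRC-MPS CM and ESC CM, each against control, and between the media). They were 2390, 2212 and 20 with a pseudocount of 5, 1312, 1187 and 15 at 2-fold, and 8316 and 8452 against control with no minimum fold. Between the media they were 157 when adjusted over the listed genes only, and 9 to 153 with 1 library left out. Median differences of the listed genes against control lay between 0.57 and 0.74 for CRC-MPS CM and between 0.55 and 0.70 for ESC CM. After centring by GC content, the direction turned for RRP12 with CRC-MPS CM against control (0.0683), DDX21 with ESC CM against control (-0.0457) and BOP1 between the media (0.0318); the cause was not tested.

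Same-numbered replicates did not deviate together throughout (correlations of -0.0387 to 0.213, -0.108 to -0.0436 and -0.352 to -0.0558 in the order above), so the numbers were not read as pairs. With CRC-MPS CM against control, however, the pairs numbered 1 (0.136) and 3 (0.213) correlated more than any pair with different numbers (at most 0.0736). With the replicate block, 34, 33 and 0 of the genes and 4081, 3783 and 20 of all listed genes were called. Depth was unknown, and tables that hold only genes selected on p cannot show how many of the 55 genes did not change.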
